A study of Mus musculus with 3 samples.

Results

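The NF-kB subunits and feedback inhibitors are 10 genes set by a list of names, out of 32285 genes in the count matrices: 4 subunit genes (Nfkb1, Nfkb2, Rela and Relb), 4 genes of the IkB family and its nuclear relatives (Nfkbia, Nfkbie, Bcl3 and Nfkbiz) and 2 genes of ubiquitin-modifying proteins (Tnfaip3 and Birc3). Their RNA was counted in single stromal cells from the inguinal subcutaneous fat of 3 male wild-type C57BL/6J mice aged 8 weeks, with 1 droplet library per mouse. The fat was digested with collagenase, floating adipocytes were taken off, and cells that carried neither the endothelial antigen CD31 nor the leukocyte antigen CD45 were sorted. All libraries belong to 1 condition, with no transgene or treatment, so the comparisons are between kinds of cells of the same mice.

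Kept were cells in which over 500 genes were found and under 5% of transcripts were mitochondrial. They were put into classes by gates on raw unique molecular identifiers (UMIs, each standing for 1 captured transcript). Adipocyte progenitors held at least 3 UMIs of Dpp4 and Pi16 together and at most 1 of Icam1 and Fabp4 together. Preadipocytes held at least 4 UMIs of Icam1 and Fabp4 together and at most 1 of Dpp4. Regulatory cells held at least 1 UMI of Clec11a and at least 1 of Fmo2, with at most 1 of Fabp4 and at most 1 of Dpp4. In mice 1, 2 and 3, these gates took 7399, 3169 and 9273 progenitors, 2278, 1394 and 1889 preadipocytes, and 270, 384 and 404 regulatory cells out of 12984, 6414 and 15179 kept cells. Cells that passed more than 1 gate, 49, 119 and 96, were left out. Within each class, cells with at least 3 UMIs of Ptx3 were also set against cells with none.

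NF-kB proteins are transcription factors built as dimers of Rel-family subunits, which IkB proteins hold in the cytoplasm of resting cells. Signals from cytokine and pattern-recognition receptors activate the IkB kinase, IkB is degraded, and the freed dimers enter the nucleus and switch on chemokine, cytokine and survival genes. Several of the induced genes, among them IkB genes and Tnfaip3, encode inhibitors of the same pathway and so close feedback loops, and in fat tissue the pathway is known for its part in inflammation in obesity. Icam1, used in the gates, and Ptx3, used for the split, are themselves known NF-kB targets. No count of these genes or of the other gate genes is given as a result.

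The promoters of the feedback inhibitors are shown because these genes are known to be controlled by NF-kB itself. RefSeq promoter windows on GRCm38.p6, from 250 bases before to 50 bases after a transcription start, were at hand for 7 of the 10 members, and were searched on both strands for a kappa-B-like pattern, GGG and TTCC with any 3 bases between them, which on the opposite strand reads GGAA and CCC around 3 bases. The pattern was in a window of 4 of these 7 members, Nfkb2, Nfkbia, Nfkbie and Tnfaip3, beside 6.31% of 27025 genes with an entry. By window it was in 7 of the 10 windows of the members, beside 5.56% of all 32851 windows. Some windows of Nfkb2 overlap and share a match, so the windows are not independent. No match was found in the windows of Rela, Bcl3 and Birc3. Nfkb1, Relb and Nfkbiz had no entry. The stretches below run 5′ to 3′ on the strand of the gene and cover 120 bases next to the annotated start, with the match in capitals.
Nfkbia: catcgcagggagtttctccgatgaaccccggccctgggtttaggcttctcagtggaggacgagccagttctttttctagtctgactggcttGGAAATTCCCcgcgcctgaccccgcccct
Nfkbie: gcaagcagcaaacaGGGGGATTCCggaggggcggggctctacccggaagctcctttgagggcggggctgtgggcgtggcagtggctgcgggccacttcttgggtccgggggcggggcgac
Tnfaip3: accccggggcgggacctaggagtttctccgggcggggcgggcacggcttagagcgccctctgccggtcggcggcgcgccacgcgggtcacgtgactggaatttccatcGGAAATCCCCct
The stretch of Nfkbia, at chr12:55492648-55492767 on the minus strand, and that of Nfkbie, at chr17:45555580-45555699 on the plus strand, lie upstream of all annotated transcripts of their genes. The stretch of Tnfaip3, at chr10:19015411-19015530 on the minus strand, is intronic to another Tnfaip3 transcript. The first base of the match lies 29 bases before the start for Nfkbia, 106 bases before it for Nfkbie and 12 bases before it for Tnfaip3. A match describes these letters only and is no evidence of binding.

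In the GENCODE annotation of GRCm38, the subunit genes Nfkb1 (chr3:135584655-135691547) and Relb (chr7:19606217-19629438) lie on the minus strand and Nfkb2 (chr19:46304320-46312385) and Rela (chr19:5637483-5648130) on the plus strand. Nfkbia (chr12:55489410-55492647), Nfkbiz (chr16:55811375-55838899) and Bcl3 (chr7:19808462-19822770) lie on the minus strand and Nfkbie (chr17:45555703-45563169) on the plus strand. Tnfaip3 (chr10:19000910-19015657) and Birc3 (chr9:7848699-7873186) lie on the minus strand. Exons of Nfkb2 overlap Psd and AC114539.1 on the opposite strand, and exons of Bcl3 overlap Gm16175. Whether strand was used in counting is not given in the sources used here. It is therefore not known whether the reads of these overlapping genes were kept apart.

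The libraries held 79801002 to 100846072 UMIs, and the kept cells had a median of 6667 to 12192.5 UMIs, highest in mouse 2. Pairs of libraries shared 52, 81 and 64 barcodes. Markers that the gates did not use followed the class names: the summed level of 8 progenitor markers was 3782 to 4900 UMIs per 1000000 UMIs (CPM) in progenitors and 485 to 809 in preadipocytes, that of 8 preadipocyte markers 7697 to 9801 in preadipocytes and 805 to 1118 in progenitors, and that of 7 regulatory-cell markers 3576 to 4120 in regulatory cells and at most 2078 elsewhere. The 12 leukocyte markers summed to at most 36.8 CPM in any class or Ptx3 state. Endothelial markers summed to 4.94 to 66.5 CPM in preadipocytes and 2.79 to 8.63 CPM in progenitors. Mural markers summed to 63.1 to 91.0 and 15.9 to 26.1 CPM. Schwann markers, at 3.99 to 5.53 and 19.6 to 26.1 CPM, and mesothelial markers, at 2.68 to 5.65 and 5.71 to 12.3 CPM, were higher in progenitors. The part of such cells in the members' class differences was not tested beyond leaving out cells with UMIs of other cell types. Levels are CPM of all cells summed in a class of a mouse, so a class has 3 values, 1 per mouse, and cells are not replicates. In the main models, differences in level between the 3 mice are taken out. Intervals and p-values there set the differences between groups against a spread that is estimated in part from other genes and is shared by the classes. They do not rest only on how a gene's own difference varies from mouse to mouse. The Ptx3 model treats the classes of a mouse as independent.

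The classes differed in their NF-kB genes, as in many other genes. Among the 10 members Nfkb1 had the largest fold change between progenitors and either other class. Progenitors had more Nfkb1, Rela, Relb, Bcl3 and Nfkbiz than both other classes, while Birc3 was higher in preadipocytes and regulatory cells. Nfkb2, Nfkbia and Tnfaip3 passed the test in neither comparison with progenitors. Of the 10 members, 6 passed the test between preadipocytes and progenitors (quasi-likelihood test of edgeR, p adjusted by Benjamini-Hochberg over 13258 genes to under 0.05), 1 higher and 5 lower in preadipocytes, where 56.4% of all genes tested passed, 27.2% higher and 29.2% lower. Between regulatory cells and progenitors 7 members passed, 1 higher and 6 lower in regulatory cells (Nfkbie among them, which was lost without mouse 1 or mouse 3), against 42.9% of all genes, 18.9% higher and 24.0% lower. These shares are large for all genes, and the count of members for preadipocytes is near the share of all genes. The comparisons have the progenitor sums in common. The median log2 fold change of the members was -0.25 in preadipocytes and -0.47 in regulatory cells, beside 0.00 and -0.05 over all genes. Without the mouse as a block in the model, so that differences between mice count as error, 1 and 2 members passed. With gates that left out Icam1, the Birc3 difference of preadipocytes from progenitors no longer passed, at 0.12 on the log2 scale. In cells without Ptx3, Bcl3 and Nfkbiz no longer passed between regulatory cells and progenitors.

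Nfkb1 encodes p105, the precursor of the p50 subunit. Its level in mice 1, 2 and 3 was 593, 482 and 827 CPM in progenitors. It was 209.6, 220.0 and 321 CPM in preadipocytes and 118, 121 and 248 CPM in regulatory cells. Every progenitor value lay above every value of the other classes, and mouse 3 was highest in each class. Nfkb1 had a log2 fold change of -1.39 (SE 0.0973, adjusted p = 1.27e-07) for preadipocytes against progenitors and -2.00 (SE 0.109, adjusted p = 3.28e-08) for regulatory cells against progenitors. Preadipocytes exceeded regulatory cells in 3 of 3 mice, by 0.62 (SE 0.108, adjusted p = 0.00126) on the log2 scale, although the ranges overlapped.

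Rela encodes p65, the main activating subunit of the classical pathway. Its level was 56.7, 67.1 and 71.0 CPM in progenitors and 42.1, 44.9 and 47.5 CPM in regulatory cells, and these ranges did not overlap. In preadipocytes it was 46.5, 56.8 and 65.9 CPM, between the others in each mouse. Rela had a log2 fold change against progenitors of -0.27 (SE 0.0624, adjusted p = 0.0031) in preadipocytes and -0.55 (SE 0.0861, adjusted p = 0.000249) in regulatory cells. Of 13 alternatives, the preadipocyte call held in 11, with values from -0.69 to -0.17, and the regulatory call in 12.

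Relb, the partner of p52 in the alternative pathway, had 40.9, 34.7 and 53.8 CPM in progenitors, 30.4, 27.1 and 39.3 CPM in preadipocytes and 18.3, 22.4 and 32.0 CPM in regulatory cells. The order of the classes was the same in each mouse, and the progenitor and regulatory ranges did not overlap. The log2 fold change against progenitors was -0.47 (SE 0.0657, adjusted p = 6.2e-05) in preadipocytes and -0.79 (SE 0.102, adjusted p = 5.59e-05) in regulatory cells. Nfkb2, which encodes the p52 precursor p100, varied less. It had 44.1, 38.9 and 55.6 CPM in progenitors, 51.5, 43.3 and 60.4 in preadipocytes and 37.9, 35.7 and 47.0 in regulatory cells. All class ranges overlapped, and of the class comparisons only that of preadipocytes with regulatory cells passed the test, with a log2 fold change of 0.30 (SE 0.0815, adjusted p = 0.0169).

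Bcl3 and Nfkbiz encode nuclear IkB-type proteins that act as cofactors of p50 and p52 dimers. Bcl3 had 56.1, 68.1 and 78.5 CPM in progenitors, 27.8, 42.9 and 49.4 CPM in preadipocytes and 28.1, 47.1 and 61.0 CPM in regulatory cells. Progenitors and preadipocytes did not overlap, with a log2 fold change of -0.83 (SE 0.0818, adjusted p = 2.75e-06), and regulatory cells differed from progenitors by -0.59 (SE 0.110, adjusted p = 0.000923). Nfkbiz was lower than in progenitors in 3 of 3 mice in both other classes, with ranges that overlapped. It had 514, 341 and 486 CPM in progenitors, 367, 212 and 391 in preadipocytes and 378, 241 and 416 in regulatory cells. Its log2 fold change was -0.55 (SE 0.0713, adjusted p = 3.28e-05) in preadipocytes and -0.39 (SE 0.0751, adjusted p = 0.00117) in regulatory cells.

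Nfkbia encodes IkB-alpha, the quickly resynthesised inhibitor that ends a pulse of NF-kB activity. It had 979, 621 and 822 CPM in progenitors, 850.1, 533 and 904 CPM in preadipocytes and 666, 404 and 1002 CPM in regulatory cells. Progenitors were highest in mice 1 and 2 and lowest in mouse 3. The 95% interval of the log2 fold change was -0.45 to 0.12 for preadipocytes and -0.58 to 0.00 for regulatory cells, both against progenitors. Nfkbie, which encodes IkB-epsilon, had only 9.41 to 13.1 CPM in progenitors, 8.53 to 12.5 in preadipocytes and 5.62 to 7.75 in regulatory cells. The last of these rested on 8, 28 and 15 UMIs, and its difference from progenitors was -0.62 (SE 0.188, adjusted p = 0.0191) on the log2 scale, without overlap. That call held in 8 of 13 alternatives. It was lost without mouse 1 (adjusted p = 0.0993), without mouse 3 (0.108), without the mouse block, in cells without Ptx3 and at 3000 UMIs per cell, where the value was -0.22 (adjusted p = 0.688).

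Tnfaip3 encodes A20, an ubiquitin-editing enzyme that dampens signalling to the IkB kinase. It had 66.4, 50.2 and 79.6 CPM in progenitors, 69.8, 39.5 and 106 CPM in preadipocytes and 75.8, 47.3 and 128 CPM in regulatory cells. Mouse 2 was lowest and mouse 3 highest in each class, and the classes overlapped. The difference of preadipocytes from progenitors had a 95% interval of -0.21 to 0.21 on the log2 scale. Birc3 encodes cIAP2, an ubiquitin ligase of the TNF receptor complex. It had 88.9, 86.7 and 108 CPM in progenitors and 119, 135 and 164 CPM in preadipocytes, without overlap, and 97.6, 123 and 183 CPM in regulatory cells. Its log2 fold change against progenitors was 0.50 (SE 0.0835, adjusted p = 0.000264) in preadipocytes and 0.49 (SE 0.0965, adjusted p = 0.00142) in regulatory cells.

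**Figure D1:**
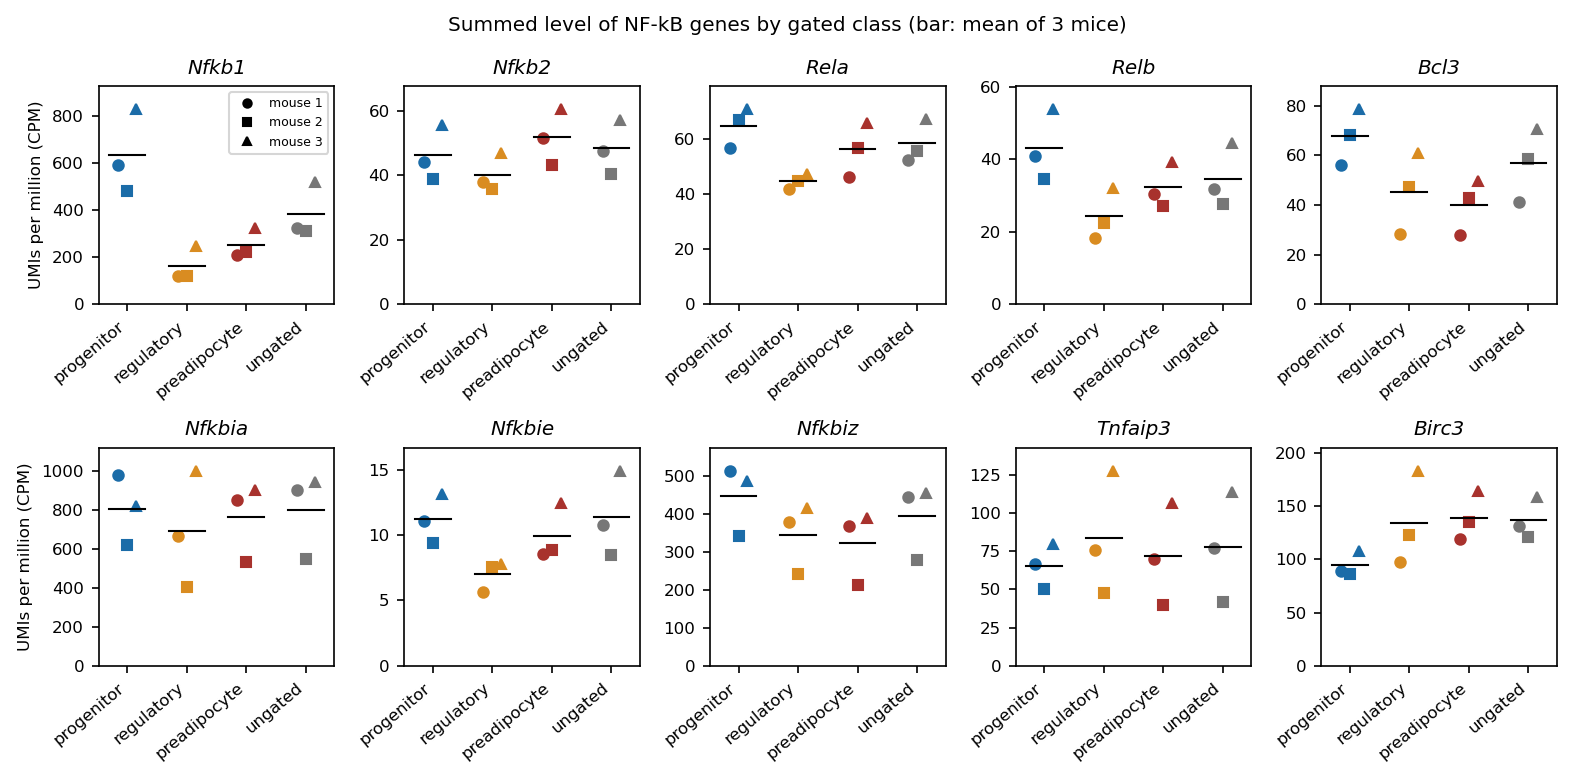
Level of each member in CPM (vertical axis, from 0, own scale in each panel) in the 3 gated classes and in cells that passed no gate (horizontal axis). Each mouse has 1 point, and a bar marks the mean. In progenitors the Nfkb1 points lie from 482 to 827 CPM, above all points of the 2 other gated classes. The ungated Nfkb1 points, from 309 to 519 CPM, overlap those of progenitors. The Birc3 points of progenitors lie below those of preadipocytes.

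Across these tests 3 members did not overlap between preadipocytes and progenitors, Birc3 higher and Nfkb1 and Bcl3 lower, where 23.5% of all genes did so higher and 20.1% lower. This count of members is not above the share of all genes. Between regulatory cells and progenitors 4 members did so, all lower (Nfkb1, Rela, Relb and Nfkbie), where 17.2% of all genes did so higher and 21.2% lower. Between preadipocytes and regulatory cells 1 did so, Nfkbie higher, where 16.2% of all genes did so higher and 11.2% lower. Between preadipocytes and regulatory cells 4 members passed the test, all higher in preadipocytes and all of them subunits, where 25.7% of all genes passed, 13.4% higher and 12.3% lower. The log2 fold change was 0.32 (adjusted p = 0.0462) for Relb and 0.29 (adjusted p = 0.0318) for Rela, beside those of Nfkb1 and Nfkb2 given above. Nfkb2 and Relb lost this call when any of the mice was left out (adjusted p = 0.0821 to 0.228), and Rela lost it without mouse 2 (0.209) or mouse 3 (0.199), while Nfkb1 kept it each time.

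Genes that answer to enzymatic dissociation also differed between the classes. Of 27 tested, 19 were higher and 4 lower in preadipocytes than in progenitors, with a median log2 fold change of 0.58, and 15 higher and 4 lower in regulatory cells, with a median of 0.39. Over all genes, 27.2% were higher and 29.2% lower in preadipocytes, and 18.9% and 24.0% in regulatory cells. The summed level of the dissociation genes was 26371 to 29563 CPM in progenitors, 35430.1 to 44026 CPM in preadipocytes and 32667 to 37034 CPM in regulatory cells, and progenitors overlapped neither other class. The part of these genes in the members' class differences was not tested.

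The choice of gate touched these calls. Icam1 is both a gate gene and an NF-kB target, so the gates were also set without it. Nfkb1, Rela, Relb, Bcl3 and Nfkbiz were then again lower in preadipocytes than in progenitors, and Tnfaip3 (-0.41, adjusted p = 0.00607), Nfkbia (-0.33, adjusted p = 0.0288) and Nfkbie (-0.38, adjusted p = 0.0347) joined them on the log2 scale. The log2 fold change of Birc3 was then 0.12 (adjusted p = 0.256). Against regulatory cells, Bcl3, Nfkbiz, Tnfaip3 and Birc3 were then lower in preadipocytes and Rela and Relb no longer passed. In cells without Ptx3 alone, preadipocytes and regulatory cells differed in Nfkb1 by 0.10 on the log2 scale (adjusted p = 0.671), and Bcl3 and Nfkbiz were lower in preadipocytes. None of the 4 subunits passed there, with -0.11 (adjusted p = 0.627) for Nfkb2, -0.08 (adjusted p = 0.73) for Rela and 0.05 (adjusted p = 0.912) for Relb, so that Nfkb2 and Rela had the opposite sign. Regulatory cells and progenitors without Ptx3 differed by -0.42 in Bcl3 (adjusted p = 0.0639) and -0.19 in Nfkbiz (adjusted p = 0.0703).

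Within each class, the cells with at least 3 UMIs of Ptx3, a secreted pattern-recognition protein, had higher levels of most members than cells without Ptx3. All 10 members passed the test in progenitors and in preadipocytes, and 7 of 10 in regulatory cells, all higher. Over 12429 genes, 4.62% passed in progenitors (3.42% higher, 1.20% lower), 24.6% in preadipocytes (15.0% higher, 9.62% lower) and 3.33% in regulatory cells (2.47% higher, 0.861% lower). The members' median log2 fold change was 0.69 in progenitors, 1.02 in preadipocytes and 1.02 in regulatory cells, beside 0.00, -0.00 and -0.05 over all genes. Without mouse-by-class blocks 0, 5 and 0 members passed. With library size alone in place of TMM scaling, the median of all genes moved to -0.15 in preadipocytes and -0.12 in regulatory cells, and the higher and lower calls went from 425 and 149 to 339 and 247 in progenitors, from 1863 and 1196 to 1063 and 2854 in preadipocytes, and from 307 and 107 to 266 and 155 in regulatory cells. The members passing were again 10, 10 and 7, all higher. The high and zero sums held 1105 to 4302 progenitors, 446 to 949 preadipocytes and 37 to 261 regulatory cells. Cells with Ptx3 were also deeper, with medians of 7017 to 12550 UMIs against 6407 to 11648 in progenitors, 7439.5 to 13553.5 against 7148.5 to 12585 in preadipocytes, and 5462 to 11349 against 3991.5 to 9685 in regulatory cells. Within regulatory cells, the 7 regulatory-cell markers that the gate did not use summed to 2949 to 3045 CPM with Ptx3 and 3912 to 4571 CPM without it, without overlap, and the part of this difference in the members' values there was not tested.

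Nfkb1 led in preadipocytes. Its level there was 104, 116 and 184 CPM in cells without Ptx3 and 346, 421 and 456 CPM in cells with it. In progenitors it was 468, 323 and 672 CPM without Ptx3 and 749, 694 and 962 CPM with it, and in regulatory cells 110.5, 85.6 and 162 CPM without and 192, 264 and 380.1 CPM with it. The states did not overlap in any class. With Ptx3, the log2 fold change of Nfkb1 was 0.81 (SE 0.106, adjusted p = 0.000122) in progenitors, 1.37 (SE 0.187, adjusted p = 0.000213) in regulatory cells and 1.78 (SE 0.117, adjusted p = 6.8e-09) in preadipocytes. In each mouse, preadipocytes with Ptx3 had less Nfkb1 than progenitors with Ptx3.

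Rela in preadipocytes had 35.7, 34.0 and 44.4 CPM without Ptx3 and 63.6, 92.2 and 87.9 CPM with it, without overlap. In progenitors it had 50.4, 56.5 and 67.8 CPM without and 64.2, 81.8 and 74.0 CPM with it, and the states overlapped. In regulatory cells it had 30.1, 36.4 and 44.5 CPM without and 104, 83.0 and 54.5 CPM with it. With Ptx3, Rela rose by 1.25 (SE 0.123, adjusted p = 6.25e-07) in preadipocytes, 0.37 (SE 0.0942, adjusted p = 0.0267) in progenitors and 1.10 (SE 0.289, adjusted p = 0.0408) in regulatory cells on the log2 scale. The progenitor call was lost without mouse 1 (adjusted p = 0.0848) and with DESeq2 (adjusted p = 0.27), and the regulatory call without mouse 1 (0.104) or mouse 2 (0.216) and at equal depth (adjusted p = 0.278).

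Nfkb2 and Relb, of the alternative pathway, rose in progenitors and preadipocytes. Nfkb2 in preadipocytes had 45.0, 31.0 and 46.9 CPM without Ptx3 and 58.5, 61.3 and 69.3 CPM with it, and Relb had 28.4, 20.4 and 32.5 CPM without and 33.1, 39.1 and 44.3 CPM with it. Neither overlapped between the states in preadipocytes, and both overlapped in progenitors. The log2 fold change of Nfkb2 was 0.78 (SE 0.105, adjusted p = 2.2e-05) in preadipocytes and 0.43 (SE 0.0826, adjusted p = 0.00384) in progenitors, and that of Relb was 0.68 (SE 0.129, adjusted p = 0.000766) and 0.46 (SE 0.0879, adjusted p = 0.0037). In regulatory cells Nfkb2 had 35.7, 33.9 and 54.1 CPM without Ptx3 and 37.6, 40.8 and 39.4 CPM with it, and its 95% interval of -0.60 to 0.60 on the log2 scale holds a fall as well as a rise. Relb in regulatory cells did not pass either, with an interval of -0.28 to 1.23.

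Among the nuclear IkB-type genes, Bcl3 in preadipocytes had 17.4, 26.3 and 27.0 CPM without Ptx3 and 40.0, 71.9 and 69.8 CPM with it. In progenitors it had 44.5, 42.6 and 60.5 CPM without and 72.3, 103 and 92.6 CPM with it, and in regulatory cells 23.4, 33.9 and 53.0 CPM without and 41.7, 99.6 and 77.2 CPM with it. The states overlapped in regulatory cells and in neither other class. The log2 fold change was 1.51 (SE 0.148, adjusted p = 6.01e-07) in preadipocytes, 0.89 (SE 0.10, adjusted p = 2.33e-05) in progenitors and 1.16 (SE 0.301, adjusted p = 0.0382) in regulatory cells, the last of which was lost without mouse 2, at 0.64 (adjusted p = 0.325). Nfkbiz rose by 0.68 (SE 0.0745, adjusted p = 1.79e-05) in progenitors, 0.76 (SE 0.106, adjusted p = 0.00026) in regulatory cells and 0.83 (SE 0.0786, adjusted p = 3.89e-07) in preadipocytes on the log2 scale. Its preadipocyte level was 271, 174 and 306 CPM without Ptx3 and 471, 277 and 459 CPM with it, higher in 3 of 3 mice, and mouse 2 with Ptx3 lay below mouse 3 without it. The regulatory call of Nfkbiz was lost at equal depth (0.38, adjusted p = 0.384).

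Nfkbia had 866, 543 and 732 CPM in progenitors without Ptx3 and 1111, 723 and 876 CPM in those with it. In preadipocytes it had 671, 454 and 744 CPM without and 1064, 674 and 1055 CPM with it, and in regulatory cells 576, 317 and 788 CPM without and 1122, 715 and 1367 CPM with it. It was higher with Ptx3 in 3 of 3 mice of each class, although mice differed enough for the states to overlap. For Nfkbia the log2 fold change was 0.39 (SE 0.0591, adjusted p = 0.000497) in progenitors, 0.73 (SE 0.0605, adjusted p = 8.89e-08) in preadipocytes and 1.02 (SE 0.0730, adjusted p = 2.43e-07) in regulatory cells. Nfkbie rose by 0.70 (SE 0.120, adjusted p = 0.00165) in progenitors and 0.79 (SE 0.185, adjusted p = 0.0043) in preadipocytes on the log2 scale, and the preadipocyte call was lost at equal depth (0.60, adjusted p = 0.386) and without mouse 2 (0.61, adjusted p = 0.0557). In regulatory cells with Ptx3 it rested on 0, 5 and 6 UMIs, and a difference was not detectable at this depth (95% interval -1.04 to 1.43).

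Tnfaip3 in preadipocytes had 44.1, 26.3 and 69.7 CPM without Ptx3 and 104, 65.3 and 141 CPM with it. In progenitors it had 51.0, 32.5 and 62.9 CPM without and 84.1, 72.0 and 94.1 CPM with it, without overlap, and in regulatory cells 54.7, 27.3 and 93.3 CPM without and 142, 89.0 and 192 CPM with it. For Tnfaip3 the log2 fold change was 1.32 (SE 0.108, adjusted p = 7.63e-08) in preadipocytes, 0.84 (SE 0.0882, adjusted p = 1.6e-05) in progenitors and 1.38 (SE 0.213, adjusted p = 0.000651) in regulatory cells. Tnfaip3 was higher with Ptx3 in 3 of 3 mice of each class, and the states overlapped in preadipocytes and regulatory cells.

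Birc3 had 81.2, 89.3 and 108 CPM in preadipocytes without Ptx3 and 155, 218 and 207 CPM in those with it. In progenitors it had 73.5, 63.1 and 83.7 CPM without and 111, 119 and 127 CPM with it, and in regulatory cells 87.0, 94.3 and 147 CPM without and 150.2, 225 and 233 CPM with it. The states did not overlap in any class. For Birc3 the log2 fold change was 1.21 (SE 0.0928, adjusted p = 3.65e-08) in preadipocytes, 0.75 (SE 0.0846, adjusted p = 2.37e-05) in progenitors and 1.01 (SE 0.162, adjusted p = 0.000974) in regulatory cells.

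**Figure D2:**
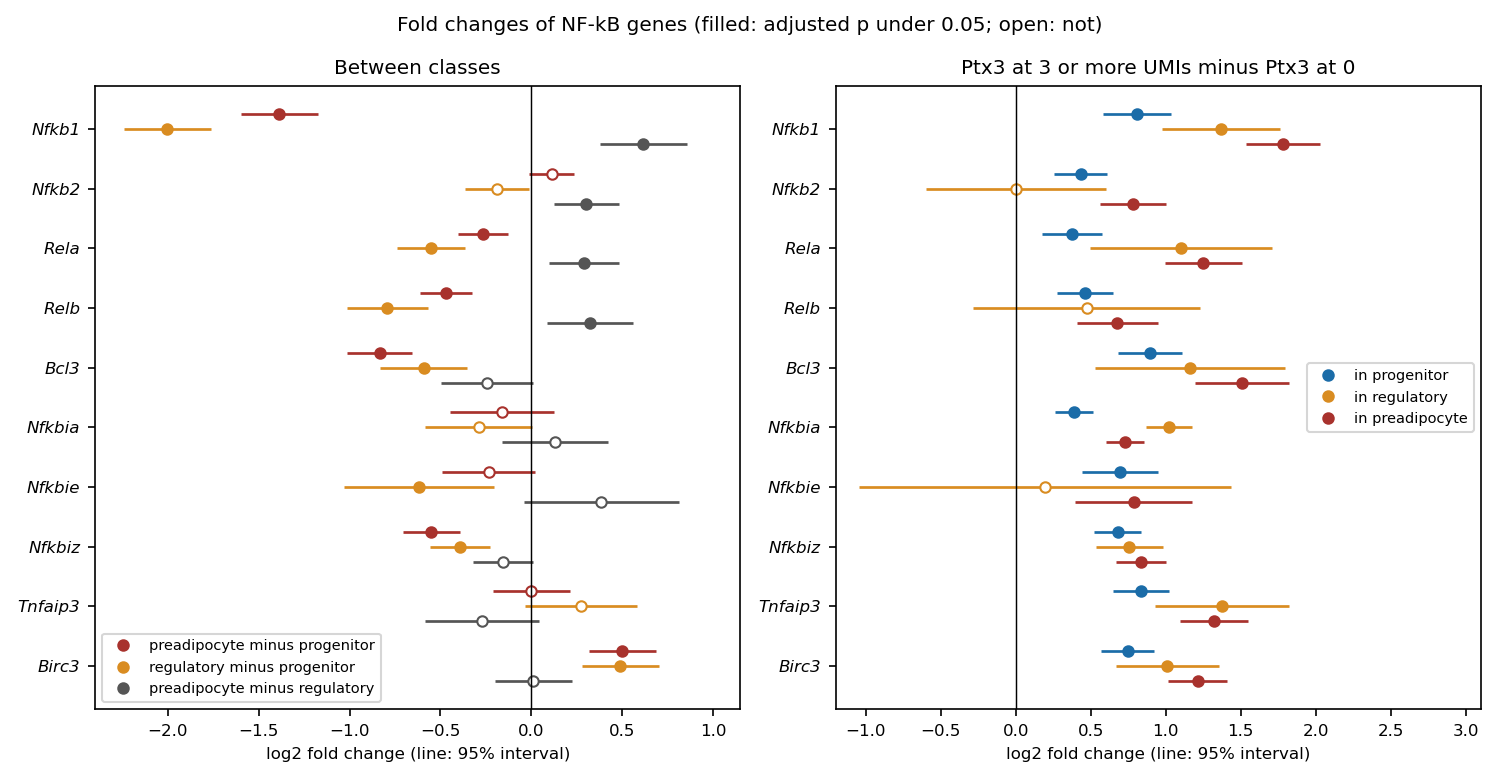
Log2 fold change of each member (horizontal axis) with its 95% interval, between classes and between cells with at least 3 UMIs of Ptx3 and cells with none. Filled points have an adjusted p under 0.05 and open points do not. Nfkb1 has the lowest value against progenitors in both other classes, at -1.39 and -2.00, and the highest value for Ptx3 in preadipocytes, at 1.78.

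Members were higher with Ptx3 in 3 of 3 mice for 10 genes in progenitors, 8 in regulatory cells and 10 in preadipocytes, where 15.2%, 10.4% and 15.4% of all genes tested were higher in 3 of 3 mice and 30.0%, 22.4% and 43.8% lower. The states did not overlap for 6, 3 and 7 members, all higher, where 2.28%, 3.75% and 5.45% of all genes were higher without overlap and 4.48%, 10.1% and 18.5% lower. At equal depth, with cells thinned to 3000 UMIs, all 10 members still passed in progenitors, 9 in preadipocytes and 5 in regulatory cells. In regulatory cells the sums of cells with Ptx3 then held 15, 35 and 57 cells. The share of all genes passing at equal depth is not set beside these counts. With the Ptx3 split made on at least 5 UMIs per 10000 instead, the calls were again 10 in progenitors and 10 in preadipocytes. The share of all genes passing with that split is not set beside these counts. The regulatory calls were less stable: over 14 alternatives Rela passed in 9, Bcl3 in 11 and Nfkbiz in 12. Nfkb1, Nfkbia, Tnfaip3 and Birc3 each passed in 13 of them.

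Levels were also read by the number of Ptx3 UMIs per cell, with no test of a trend. In preadipocytes with 0, 1, 2, 3 to 5, 6 to 10 and over 10 UMIs of Ptx3, mean Nfkb1 over the mice was 135, 154, 178, 242, 295 and 501 CPM, higher at each step. In progenitors the mean was higher at each step too, from 488 to 916 CPM. From the lowest to the highest bin, Tnfaip3 went from 46.7 to 117 CPM in preadipocytes and from 48.8 to 92.1 CPM in progenitors. Birc3 went from 92.7 to 214 CPM in preadipocytes and from 73.4 to 136 CPM in progenitors. Bcl3 in preadipocytes went from 23.5 to 70.5 CPM with a dip at 2 UMIs, to 28.6 CPM. Nfkbie in preadipocytes showed no steady rise, with 6.97 CPM at 6 to 10 UMIs and 12.7 CPM above 10. Relb in preadipocytes was at 34.4 CPM at 3 to 5 UMIs and lower, at 28.7 CPM, at 6 to 10. In regulatory cells, where a bin above 1 UMI held as few as 8 to 12 cells of a mouse, mean Nfkb1 was 119 CPM in the lowest bin, 329.9 CPM at 6 to 10 UMIs and 300.4 CPM above 10, and Nfkb2 showed no steady rise, with 41.2, 24.3 and 45.3 CPM at 0, 3 to 5 and over 10 UMIs. Cells with more UMIs in all also tend to hold more Ptx3 UMIs, and the bins were not thinned.

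**Figure D3:**
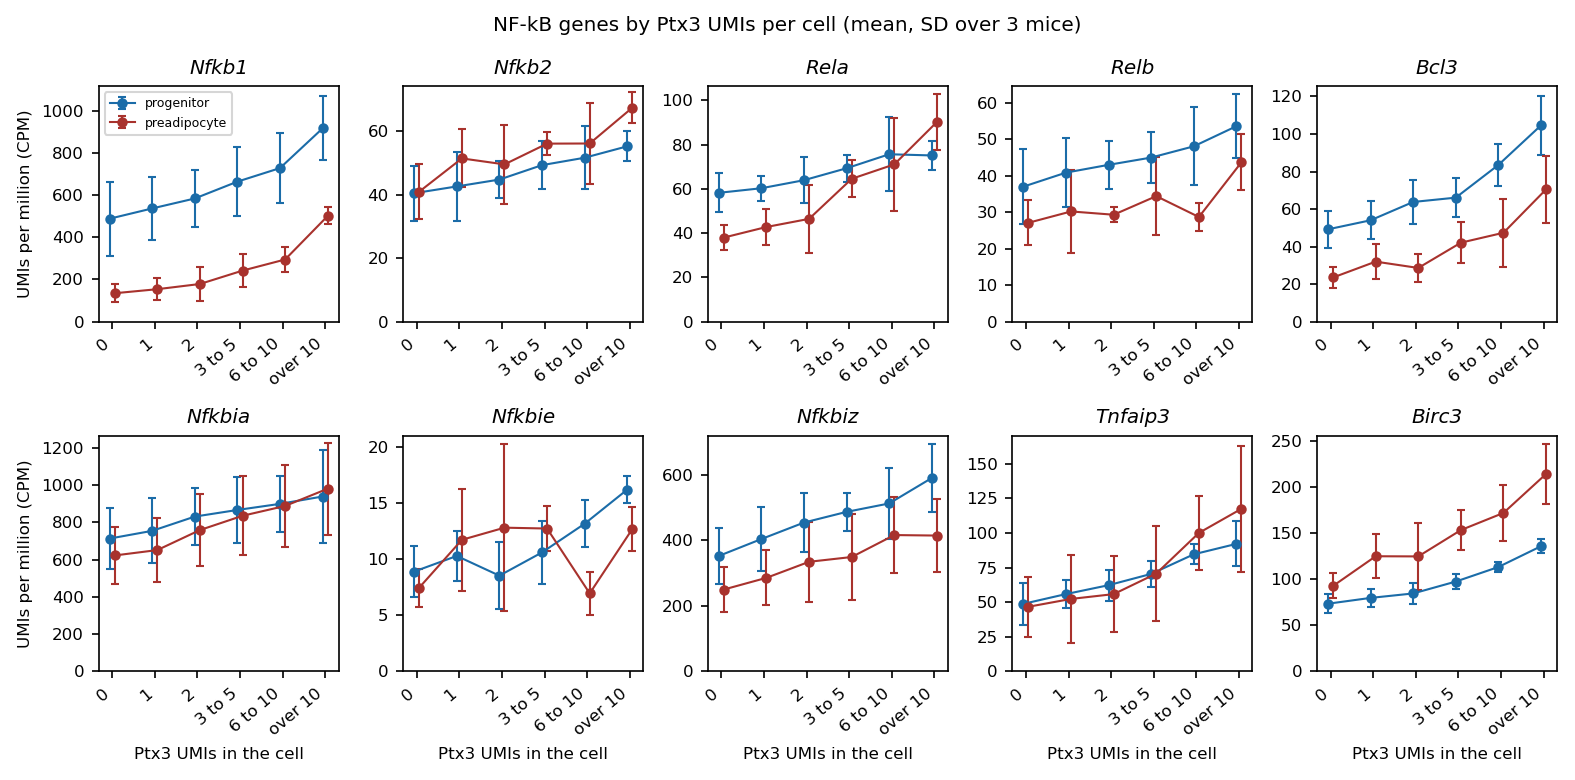
Level of each member in CPM (vertical axis) by the number of Ptx3 UMIs per cell (horizontal axis, 6 bins) in progenitors and preadipocytes, with points at the mean and error bars of 1 SD over 3 mice. Preadipocyte Nfkb1 starts at 135 CPM and ends at 501 CPM, while progenitor Nfkb1 starts at 488 CPM and ends at 916 CPM.

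The difference that went with Ptx3 was larger in preadipocytes than in progenitors for 5 members, tested as an interaction in the same model, where 6.34% of all genes passed, 5.16% with a larger and 1.18% with a smaller value in preadipocytes. The extra log2 fold change was 0.97 (SE 0.157, adjusted p = 0.000874) for Nfkb1 and 0.88 (SE 0.156, adjusted p = 0.00185) for Rela. It was 0.49 (adjusted p = 0.0452) for Tnfaip3, 0.47 (adjusted p = 0.032) for Birc3 and 0.34 (adjusted p = 0.0212) for Nfkbia. Bcl3 missed the threshold, at 0.61 (adjusted p = 0.0511), and Nfkb2, Relb, Nfkbiz and Nfkbie lay between 0.09 and 0.35. Those of Nfkb1 and Rela passed in every alternative that kept the mouse-by-class blocks, and in none without them, while Nfkbia passed in 7, Birc3 in 6 and Tnfaip3 in 3 of 13 alternatives and each was lost without mouse 1, without mouse 3 and with DESeq2 (adjusted p = 0.0516 to 0.29). Tnfaip3 was also lost with RLE scaling (0.061), with library size alone (0.0799), without cells holding UMIs of other cell types (0.0571), with gates without Icam1 (0.715) and with Ptx3 split at 1 UMI (0.109). At equal depth the values of Tnfaip3 and Birc3 were 0.20 and 0.12 (adjusted p = 0.687 and 0.776). Icam1, an NF-kB target, counts toward the preadipocyte gate and is capped in the progenitor gate. With gates without Icam1, preadipocytes numbered 1617, 932 and 1132 in mice 1, 2 and 3. Beyond that alternative, the part of this asymmetry in the interactions was not tested. Between regulatory cells and progenitors the Ptx3 difference was larger for Nfkbia alone, by 0.63 (SE 0.0936, adjusted p = 0.00471), where 0.282% of all genes passed, 0.201% with a larger and 0.0805% with a smaller value in regulatory cells, and 4 members had an unadjusted p under 0.05. Between preadipocytes and regulatory cells 0 members passed by edgeR, as with DESeq2, and 2 had an unadjusted p under 0.05, where 0.418% of all genes passed, 0.402% with a larger and 0.0161% with a smaller value in preadipocytes.

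Genes around the members in the pathway were read from fixed lists. Among other Rel and IkB genes, Rel, which encodes the c-Rel subunit, was lower than in progenitors, with log2 fold changes of -1.28 in preadipocytes and -1.50 in regulatory cells, and with Ptx3 it rose by 0.68, 1.13 and 1.43 in progenitors, regulatory cells and preadipocytes (edgeR, adjusted p under 0.05 for each). From a list of ubiquitin editors and other brakes of the pathway, not all of them brakes, 15 genes were tested. Of these, 2, 2 and 6 rose with Ptx3 in the same order of classes and 0 fell. Over all genes, 3.42%, 2.47% and 15.0% rose and 1.20%, 0.861% and 9.62% fell. The brakes that rose included Zc3h12a, an RNase that degrades cytokine transcripts, at 0.84, 0.94 and 1.65, and Zfp36, which destabilises such transcripts, at 0.31, 0.36 and 0.39. In preadipocytes Tnip1 and Tnip2, partners of A20, also passed.

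Of 37 NF-kB target genes tested, 20 rose with Ptx3 in progenitors, 18 in regulatory cells and 24 in preadipocytes, and 0 fell in any class. Over all genes, 3.42%, 2.47% and 15.0% rose in these classes and 1.20%, 0.861% and 9.62% fell. The median log2 fold change of the list was 0.42, 0.61 and 0.81. Il6, an inflammatory cytokine, rose by 1.38, 1.48 and 2.11 in progenitors, regulatory cells and preadipocytes on the log2 scale. The monocyte chemokine Ccl2 rose by 1.10, 1.89 and 2.14 and the neutrophil chemokine Cxcl1 by 0.98, 1.13 and 1.43. Sod2, the mitochondrial superoxide dismutase, rose by 0.79, 1.03 and 1.26. In regulatory cells, Saa3 had 0 UMIs in the cells without Ptx3 of all mice and 22 in the cells with it, at least 20-fold higher against a floor of 3 UMIs over the group. Cx3cl1, with 3 UMIs without Ptx3 and 0 with it in regulatory cells, got no bound. With Saa3 at its bound and Cx3cl1 left out, the median of the target list was 0.79 in regulatory cells. Saa3 lay above the median either way, so this change from 0.61 came from leaving out Cx3cl1. In preadipocytes, with Cxcl3 set to such a bound, the median was again 0.81.

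Between the classes, by contrast, the target genes went both ways. Of 38 tested, 15 were higher and 14 lower in preadipocytes than in progenitors, and 17 higher and 12 lower in regulatory cells. Over all genes, 27.2% were higher and 29.2% lower in preadipocytes, and 18.9% higher and 24.0% lower in regulatory cells. Of 18 receptors and ligands tested, 6 were higher and 10 lower in preadipocytes. Il1r1 and Tnfrsf1a, the signalling receptors for IL-1 and TNF, were higher in preadipocytes by 0.92 and 0.79 on the log2 scale, while Tlr2, a receptor for bacterial lipoproteins, and Tnfrsf1b fell by 2.52 and 1.82. Il1rap, Il18r1 and Il33 were also lower in preadipocytes, with log2 fold changes of -1.16, -5.20 and -3.74. With Ptx3, 6, 4 and 8 of these 18 genes rose in progenitors, regulatory cells and preadipocytes, among them Il1r1 by 0.49, 0.72 and 0.89. Of 27 adaptors and kinases tested, 5 rose and 1 fell in progenitors and 7 rose and 1 fell in preadipocytes with Ptx3. In regulatory cells 0 passed by edgeR. Over all genes, 3.42%, 2.47% and 15.0% rose with Ptx3 in progenitors, regulatory cells and preadipocytes, and 1.20%, 0.861% and 9.62% fell. The share of adaptors and kinases that passed in preadipocytes was near the 24.6% of all genes.

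Genes that answer to enzymatic dissociation moved with Ptx3 as well. Of 27 tested, 4 rose and 11 fell in progenitors, 4 rose and 11 fell in regulatory cells, and 9 rose and 10 fell in preadipocytes. Over all genes, 3.42%, 2.47% and 15.0% rose in these classes and 1.20%, 0.861% and 9.62% fell. The median log2 fold change of the list was -0.14 in progenitors, -0.13 in regulatory cells and 0.04 in preadipocytes. Fos fell by 0.60 in progenitors and 0.59 in preadipocytes on the log2 scale, and Hspa1a by 0.77 and 1.26. Egr3, Socs3, Maff and Myc rose in both of these classes. The summed level of the list was 24115 to 27103 CPM with Ptx3 and 28345 to 31591 CPM without it in progenitors. In preadipocytes it was 32112 to 40819 and 37181 to 48350 CPM, and these ranges overlapped. Endothelial markers summed to 2.57 to 6.70 CPM with Ptx3 and 6.40 to 133 CPM without it in preadipocytes. With cells that held UMIs of other cell types left out, 10, 7 and 10 members still passed in progenitors, regulatory cells and preadipocytes. The share of all genes passing in that setting is not set beside these counts. The part of the dissociation genes in the members' differences was not tested.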

How the data were processed

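UMIs per gene and barcode were counted by the authors with Cell Ranger and deposited as raw counts, without normalization. The submitters' processing notes name version 2.1.1 and build mm10, and the headers of all deposited matrices name version 4.0.0. In the data of 3 mice, cells were filtered and gated as described, no doublet caller was run, and cells in more than 1 gate were left out. Counts were summed per mouse and class (9 sums) or per mouse, class and Ptx3 state (18 sums).

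Sums were tested with edgeR 4.0.16 in R 4.3.3 (filterByExpr, TMM scaling, two-sided quasi-likelihood F test, Benjamini-Hochberg adjustment, called at 0.05). The class model had the mouse as a block and the Ptx3 model had mouse-by-class blocks, because the sums of a mouse come from the same animal. Deviations from class means correlated between sums of the same mouse (mean r 0.255, 0.492 and 0.361 over 13264 genes, lowest 0.154). SE is the size of the log2 fold change over the root of F, with 95% intervals from the t distribution. Gate genes and Ptx3 were fitted but not counted.

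In simulated counts, 185 of 200 changed genes were recovered with 10 false calls for preadipocytes against progenitors (13097 genes), and 173 of 198 with 3 false calls for Ptx3 in preadipocytes (12104 genes). The planted changes were larger than most class differences of the members. All genes had the same spread, and the mouse effect was shared by the classes. The recovery therefore does not measure the power for the members. CPM are UMIs per 1000000 UMIs of a sum. Alternatives were DESeq2 1.42.0, RLE scaling (edgeR's form of DESeq2 size factors), library size alone, no low-count filter, other gates and Ptx3 limits, thinning to 3000 UMIs, no block, and each mouse left out. For Ptx3, each class was also fitted alone. Gene IDs were matched to GENCODE on GRCm38 for 32158 of 32285 genes. The genes named are the 10 members, genes of the pathway lists, and the 5 genes outside the members and gate genes, with a mean of at least 20 CPM, whose pattern was most like that of the members. Members, lists and tests were chosen with earlier results of these data known. Tables and figures were made with pandas 2.3.3 and matplotlib 3.10.9 in Python 3.11.15.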

Additional observations from a re-analysis of the deposited data

Results flagged for a closer look

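The difference between cells with at least 3 UMIs of Ptx3 and cells with none was not the same in all classes for 5 members, by the interaction test of edgeR. It was larger in preadipocytes than in progenitors for Nfkb1, by 0.97 (adjusted p = 0.000874) on the log2 scale, with fold changes of 1.78 and 0.81. For Rela it was larger by 0.88 (adjusted p = 0.00185), with 1.25 and 0.37. For Tnfaip3 it was larger by 0.49 (adjusted p = 0.0452), with 1.32 and 0.84, and for Birc3 by 0.47 (adjusted p = 0.032), with 1.21 and 0.75. For Nfkbia it was larger in preadipocytes by 0.34 (adjusted p = 0.0212) and in regulatory cells by 0.63 (adjusted p = 0.00471), both against progenitors, with 0.73 in preadipocytes, 1.02 in regulatory cells and 0.39 in progenitors. In preadipocytes against progenitors, Nfkb1 and Rela passed in 12 of 13 alternatives, Nfkbia in 7, Birc3 in 6 and Tnfaip3 in 3. Icam1, an NF-kB target, enters the gates of these classes in opposite ways. The lowest value was 0.12 for Birc3 at 3000 UMIs per cell and 0.15 for Tnfaip3 with gates without Icam1 (adjusted p = 0.715). Each member was higher with Ptx3 in 3 of 3 mice of each class named here. No member was tested for single libraries far from the others, since a class has 3 mice.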

How the results depend on the processing

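For 66 member differences, 886 alternative values were computed, of which 733 kept their direction and their side of the threshold, 103 fell out of the calls, 22 came in and 28 changed sign. The 66 are all class and Ptx3 differences and those interactions that passed in the main model. Interactions called only in an alternative are therefore not among those that came in. Where a cause of a change is not part of the alternative itself, the cause was not tested.

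Without the replicate block, which leaves the differences between mice in the error, 3996, 3130 and 1531 genes were called for preadipocytes against progenitors, regulatory cells against progenitors and preadipocytes against regulatory cells, with 1, 2 and 0 members. For Ptx3, 2, 31 and 352 genes were called in progenitors, regulatory cells and preadipocytes, with 0, 0 and 5 members, and 0 genes and 0 members for the interactions. With the block, the counts were 7471, 5694 and 3405 genes for the classes, 574, 414 and 3059 for Ptx3, and 788, 35 and 52 for the interactions (preadipocytes against progenitors, regulatory cells against progenitors, preadipocytes against regulatory cells). Without the block, the sign changed for Tnfaip3 between preadipocytes and progenitors (0.075) and for Birc3 between preadipocytes and regulatory cells (-0.0039).

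At 3000 UMIs per cell, 3438 genes were called for regulatory cells against progenitors, 1945 with 1 member for preadipocytes against regulatory cells, 173 and 951 for Ptx3 in regulatory cells and preadipocytes, and 305 with 3 members for the interaction of preadipocytes and progenitors. DESeq2 called 1 member for preadipocytes against regulatory cells, 334 genes for Ptx3 in progenitors, 2 members for the interaction of preadipocytes and progenitors, and 173 and 86 genes for the other interactions. Without a low-count filter, 938 and 663 genes were called for Ptx3 in progenitors and regulatory cells, and 1248, 241 and 211 for the interactions, with 3 and 2 members in the last 2. With library size alone, 2 members and 59 genes were called for the first and second interaction, and with RLE 58 genes for the second. With gates without Icam1, 3 members were called for the first interaction, and 61 and 24 genes for the others. In cells without Ptx3, 2 members were called for preadipocytes against regulatory cells, both lower. With Ptx3 split at 1 UMI, 21 genes were called for the second interaction. With library size alone, the larger and smaller values called in the first interaction were 414 and 344, against 641 and 147 with TMM.

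With each mouse left out in turn, calls for preadipocytes against regulatory cells ranged from 2053 to 2800 genes and from 1 to 2 members. Calls for Ptx3 ranged from 231 to 660 genes in progenitors, from 154 to 423 in regulatory cells and from 1874 to 2390 in preadipocytes, lowest without mouse 3 in each. For the interactions they ranged from 275 to 782 genes with 2 to 6 members, from 11 to 53 and from 0 to 71.

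Some signs changed. For Tnfaip3 between preadipocytes and progenitors the log2 fold change was 0.0026 with RLE, 0.055 with library size, 0.022 without cells holding UMIs of other cell types, 0.052 with cells of more than 1 gate, and -0.18 to 0.19 with a mouse left out. For Birc3 between preadipocytes and regulatory cells it was -0.0096 with RLE, -0.0044 with DESeq2, -0.16 at 3000 UMIs, -0.40 without Icam1, -0.057 with cells of more than 1 gate, -0.32 in cells without Ptx3, and -0.050 to 0.14 with a mouse left out. In cells without Ptx3, Nfkb2 was at -0.051, 0.061 and -0.11 in the 3 class comparisons in the order above, and Rela at -0.076 between preadipocytes and regulatory cells, where both had passed at 0.30 and 0.29. Between these classes Nfkbia was at -0.11 without Icam1 and Nfkbie went from 0.38 to -0.29 at 3000 UMIs. For Ptx3 in regulatory cells, Nfkb2 was at -0.059 with library size, -0.83 at 3000 UMIs, -0.0030 with 5 UMIs per 10000, and -0.28 to 0.27 with a mouse left out, and Nfkbie was at -0.028 with 5 UMIs per 10000 and -0.21 to 0.52 with a mouse left out.

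Depth limits the regulatory cells most: their sums with Ptx3 held 37, 62 and 117 cells. The 3 mice share 1 condition, age and sex, so nothing here speaks of other states of the tissue. UMIs of free RNA were not removed, and the classes rest on few UMIs of few genes per cell.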

Other observations

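Among 5475 genes with a mean of at least 20 CPM over the 18 sums of mouse, class and Ptx3 state, 5 genes had the pattern most like the mean of the members, each member standardised on log2(CPM + 1). They were Ptpn2, a phosphatase that acts on JAK and STAT proteins (Pearson r = 0.934), Stx11, a syntaxin of vesicle fusion (0.928), Bach1, a repressor of haem-response genes (0.927), Kdm6b, a histone H3K27 demethylase (0.925), and Cxcl1, the chemokine of the target list (0.915). The sums share libraries and cells of the same mice, so r is a description over 18 points that are not independent. With Ptx3, the log2 fold change in progenitors, regulatory cells and preadipocytes was 0.76, 1.04 and 1.05 for Ptpn2, 0.61, 1.27 and 1.52 for Bach1 and 0.64, 1.21 and 1.43 for Kdm6b. For Stx11 it was 0.96, 1.32 and 1.80. The 5 genes were chosen over these same 18 sums, which are split by Ptx3, so these fold changes follow in part from the choice and are a description.

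The cells that passed no gate, 2988, 1348 and 3517 in mice 1, 2 and 3, had 323, 309 and 519 CPM of Nfkb1, between preadipocytes and progenitors in each mouse. Their Birc3 was at 132, 121 and 159 CPM and their Tnfaip3 at 77.2, 42.0 and 114 CPM. They entered no comparison.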
